A study of Mus musculus with 45 samples.

Results

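Day 7 mouse cultures that had passed through a sequential retinoic acid and BMP4 treatment (group B7) were compared with day 5 cultures at the end of that treatment (group B5). The comparison used 6 of the 45 libraries, 3 in each group, chosen by their labels in a table of normalised RNA levels. The cultures began as mouse embryonic stem cells, which were directed with bFGF and the WNT agonist CHIR to neuromesodermal progenitors, the stem cells of the embryonic tail that give both spinal cord and trunk mesoderm. From day 3 both groups received 100 nM retinoic acid for 24 h, followed by a 24 h pulse of 100 nM retinoic acid with 10 ng/ml BMP4 that ended on day 5. The B5 cells were lysed then, and the B7 cells on day 7. The labels name no agent for B7 after day 5. A matched pair of groups, R7 and R5, had 100 nM retinoic acid for 48 h and no BMP4. Another pair, M7 and M5, had 100 nM retinoic acid and 10 ng/ml BMP4 together for 48 h. The labels give the cell type only as mESCs, with no line or genotype. Each library is a whole culture, in which fewer cells of a type and less RNA per cell cannot be told apart. The study's purpose, from its title, was the stepwise making of spinal sensory interneurons.

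In the embryonic spinal cord, BMPs from the roof plate act on dorsal progenitors, and the neurons born nearest to it are the dI1, dI2 and dI3 interneurons. The dI4, dI5 and dI6 classes arise further from it. BMP receptors activate SMAD proteins, which switch on the Id and Msx genes. Retinoic acid, made by the somites, binds nuclear receptors on DNA, promotes neuronal differentiation, sets anterior Hox expression and induces the CYP26 enzymes that degrade it.

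Levels were compared on the log2 scale after adding 1, with limma across 11220 listed genes, and a gene was called when its Benjamini-Hochberg adjusted p was under 0.05. Log2 changes are B7 minus B5, so a change of 1 is a 2-fold higher value in B7. Of the 11220 genes, 1778 (15.8%) rose in B7 and 1723 (15.4%) fell, which makes 3501 (31.2%) called in either direction. Among them, 991 rose and 539 fell by 2-fold or more. The median change over all listed genes was -0.02. The groups did not overlap for 4783 genes (42.6%), of which 3361 were also called. The numbers of calls did not rest evenly on the libraries. Without B5 replicate 3 they came to 1128 higher and 976 lower, while without B5 replicate 1 they came to 1836 higher and 1697 lower.

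The 6 libraries had sums of listed levels between 13342263 and 14844101. Library pairs within B5 differed by a median absolute log2 difference of 0.254 to 0.320, those within B7 by 0.180 to 0.265, and the 9 pairs between B7 and B5 by 0.295 to 0.504. B5 replicate 1 stood apart, being the highest B5 library for 33 of 37 pan-neuronal genes, and likewise for 28 of 29 mesenchyme and matrix genes, 11 of 12 mesothelium genes and 10 of 11 smooth muscle genes. B5 replicate 3 was the highest for 14 of 15 Hox genes of groups 1 to 5 and for all 12 of groups 6 to 9. B7 replicate 3 was the highest B7 library for 30 of the 37 pan-neuronal genes and all 9 dI1 genes, and for 0 of 24 pluripotency genes. Nothing in the labels ties these differences to a batch. Counts of called members without a library are given beside the lists where they moved most.

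The 12 leading rises included genes of dorsal commissural neurons. Atoh1, the proneural factor of dI1 progenitors (chromosome 6, 64729125 to 64731245, mm10), had levels of 822, 952 and 2514 in the B7 libraries, against 19, 1.77 and 2.59 in the B5 libraries (log2 change 7.75 ± 1.10 SE, adjusted p = 3.98e-06). Barhl1, a homeobox gene of dI1 neurons (chromosome 2, 28907679 to 28916668), had 384, 445 and 1578 in the B7 libraries, against 13.2, 1.82 and 3.25 in the B5 libraries (log2 change 6.87 ± 1.12 SE, adjusted p = 2.81e-05). In both, B7 replicate 3 was the highest library and B5 replicate 1 the highest of its group, and the lowest B7 library was still far above it. Lhx9, a LIM homeobox gene of the same neurons, had 150.4, 139 and 382 in the B7 libraries, against 13.2, 3.22 and 3.45 in the B5 libraries (log2 change 4.97 ± 0.82 SE, adjusted p = 3.17e-05). Cntn2, an adhesion molecule of commissural axons, had 5495, 5807 and 9586 in the B7 libraries, against 293, 33.4 and 35.3 in the B5 libraries (log2 change 6.56 ± 0.84 SE, adjusted p = 9.19e-07). Robo3, a receptor that commissural axons carry before they cross the midline, had 1391, 835 and 1897 in the B7 libraries, against 218, 13.3 and 13.4 in the B5 libraries (log2 change 5.2 ± 1.22 SE, adjusted p = 0.00159), with B5 replicate 1 well above the other B5 libraries. Neurod1, a bHLH factor of newly born neurons, rose as well and had 2988, 2291 and 2057 in the B7 libraries, against 106, 53.6 and 45.8 in the B5 libraries (log2 change 5.22 ± 0.60 SE, adjusted p = 1.56e-07). In these 4 genes every B7 library lay above every B5 library, a separation that the rule for leading genes required. Over all listed genes the groups did not overlap for 42.6%. Further leading genes were Kcnmb2, an auxiliary subunit of calcium-activated potassium channels (6.73, adjusted p = 2.93e-07), Grm2, a metabotropic glutamate receptor (6.48, adjusted p = 7.85e-07), and Insc, an adaptor that orients the mitotic spindle (6.44, adjusted p = 4.63e-07). Ppp1r1c, an inhibitor of protein phosphatase 1 (5.91, adjusted p = 8.93e-07), D930028M14Rik (5.86, adjusted p = 5.08e-06) and A930011O12Rik (5.45, adjusted p = 5.96e-05) completed the 12. Without any 1 of the 6 libraries, all 12 calls held.

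The 12 leading falls included mesodermal transcription factors and a retinoic acid degrading enzyme. Hand1, a bHLH factor of lateral and cardiac mesoderm (chromosome 11, 57828705 to 57832818), had levels of 16.8, 13.9 and 18.5 in the B7 libraries, against 824, 1266 and 1028 in the B5 libraries (log2 change -5.89 ± 0.91 SE, adjusted p = 1.28e-05). Its 6 values form a tight low group and a tight high group. Gata5, a zinc-finger factor of cardiac mesoderm and endoderm, had 38, 27.3 and 41.6 in the B7 libraries, against 1288, 980.4 and 1587 in the B5 libraries (log2 change -5.13 ± 0.87 SE, adjusted p = 4.67e-05). Meox1, a homeobox gene of somites, had 61.4, 95.7 and 59.2 in the B7 libraries, against 1588, 2043 and 5095 in the B5 libraries (log2 change -5.16 ± 0.67 SE, adjusted p = 1.04e-06), with B5 replicate 3 the highest. Cyp26b1, which degrades retinoic acid (chromosome 6, 84571414 to 84593908), had 101, 136 and 180.1 in the B7 libraries, against 4295, 3421 and 6787 in the B5 libraries (log2 change -5.09 ± 0.61 SE, adjusted p = 2.92e-07). Foxf1, a forkhead factor of splanchnic mesoderm, fell as well (-3.93, adjusted p = 1.41e-06). Foxe3, a forkhead factor known from the lens, had a change of -5.31, adjusted p = 9.47e-05, and its B5 levels of 45.8, 167 and 755 spread the most, as a ratio, among the leading falls named here. Wfikkn1, a secreted protein that binds growth and differentiation factors, changed by -5.29, adjusted p = 3.35e-05. Arg1, arginase of the urea cycle (-4.71, adjusted p = 0.000104), and Csn3, a casein (-4.95, adjusted p = 9.46e-05), fell too. Sh3bgr (-4.17, adjusted p = 4.25e-08) and 4930412O13Rik (-3.88, adjusted p = 0.00106) were also among the 12, and all 12 calls held without any 1 of the 6 libraries.

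**Figure D1:**
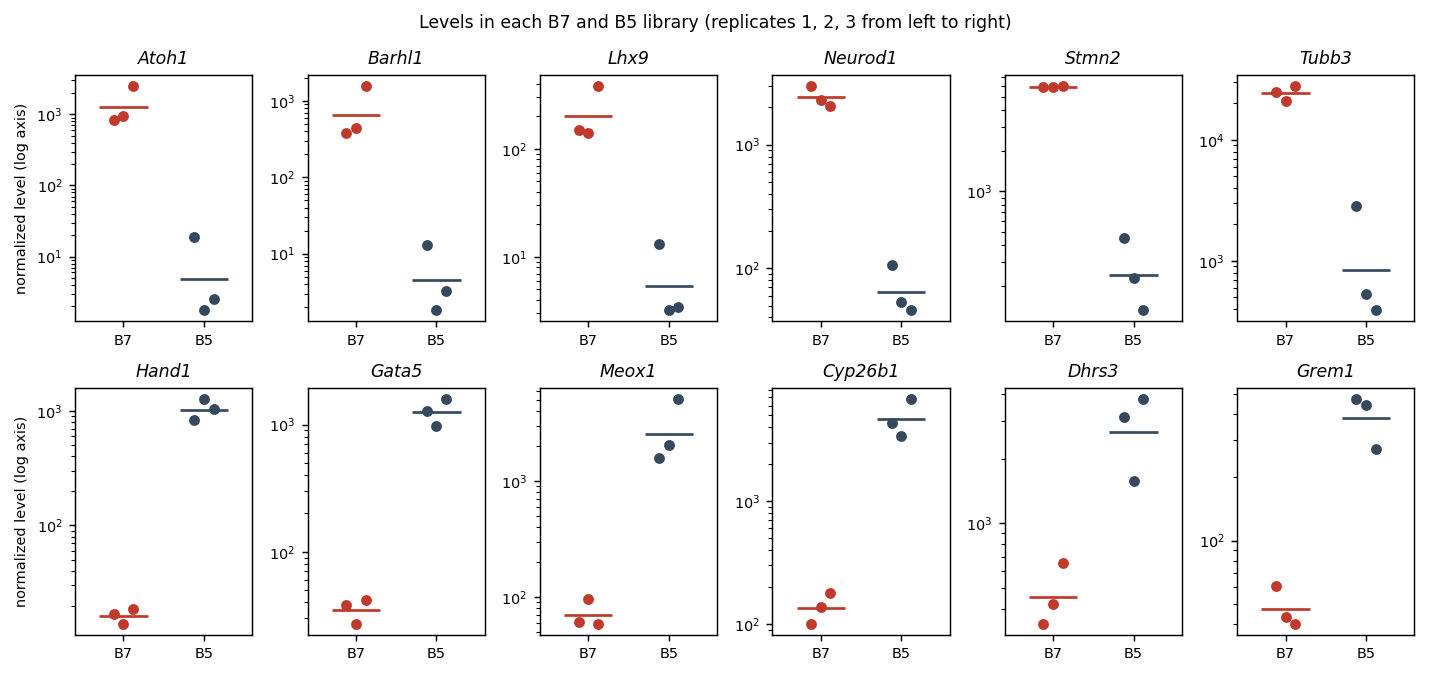
Normalised level on a log axis in each B7 library (red, left) and each B5 library (dark, right) for 12 genes, with replicates 1, 2 and 3 from left to right and lines at the mean taken on the log2 scale. The upper row holds genes that rose and the lower row genes that fell, and in none of the 12 do the groups overlap: the lowest Atoh1 level in B7 was 822 and the highest in B5 19. The leading genes among them were picked with that as a requirement, and the groups did not overlap for 42.6% of all listed genes.

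General neuronal genes rose together. Of 37 listed pan-neuronal genes, 30 rose, 0 fell and 7 were not called, against 15.8% of all genes that rose, and their median change was 2.45, beside -0.02 over all genes. A gene can stand in several lists, as Pou4f1 and Btg2 do. Each list count below is to be read beside the 15.8% of all genes that rose and the 15.4% that fell. Stmn2, a microtubule regulator of growing neurites, had levels of 5876, 5932 and 6022 in the B7 libraries, against 452, 229 and 133 in the B5 libraries (log2 change 4.63 ± 0.47 SE, adjusted p = 2.79e-08). Uchl1, a deubiquitinase abundant in neurons, had 2730.0, 2966 and 2736 in the B7 libraries, against 1013, 882 and 763 in the B5 libraries (log2 change 1.67 ± 0.15 SE, adjusted p = 2.55e-09). These B7 libraries lay within a narrow band. Tubb3, the neuronal beta-tubulin, had 24656, 20828 and 28015 in the B7 libraries, against 2829, 536 and 390.4 in the B5 libraries (log2 change 4.85 ± 0.85 SE, adjusted p = 6.78e-05). L1cam, an axonal adhesion molecule (4.43, adjusted p = 2.04e-07), Gap43, a growth cone protein (2.42, adjusted p = 3.99e-08), Chga, a protein of secretory granules (2.78, adjusted p = 2.3e-07), and the RNA-binding protein gene Elavl3 (4.54, adjusted p = 9.61e-05) also rose. Dcx, a microtubule protein of migrating neurons, had 1213, 1544 and 3435 in the B7 libraries, against 1162, 129.6 and 175 in the B5 libraries and was not called (2.64, adjusted p = 0.0627), B5 replicate 1 being close to the lowest B7 library. The neurogenic factor Ebf2 was not called either (1.06, adjusted p = 0.254). Without B5 replicate 1 the list had 31 members higher and 0 lower, and without B7 replicate 3 it had 27 higher and 0 lower.

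Genes of the synapse and of excitability rose in part. Of 25 genes of synaptic vesicles and release, 14 rose and 1 fell, with a median change of 1.20. The risen members included Syn1, a synapsin of the vesicle surface (1.96, adjusted p = 1.52e-07), Cplx1, a complexin that clamps release (1.98, adjusted p = 5.75e-07), Unc13a, which primes vesicles (2.58, adjusted p = 2.04e-06), Snap25, a SNARE protein (3.67, adjusted p = 1.62e-05), and Sv2b, a vesicle glycoprotein (2.73, adjusted p = 8.76e-05). The 1 member that fell was Cplx2, another complexin (-1.16, adjusted p = 0.0405), named after its values were seen, and its call ended without B5 replicate 1, B5 replicate 3, B7 replicate 1 or B7 replicate 2 (adjusted p = 0.07 to 0.21). Rab3c, a vesicle GTPase, and Syn2 were not called (1.98, adjusted p = 0.0899, and 1.09, adjusted p = 0.0618). Of 29 voltage-gated channel genes, 12 rose and 0 fell, with a median of 0.48. Among these, the sodium channel gene Scn9a had 326, 363 and 318 in the B7 libraries, against 49.8, 26.3 and 28.8 in the B5 libraries (log2 change 3.28 ± 0.37 SE, adjusted p = 1.07e-07). The calcium channel gene Cacna1b (1.81, adjusted p = 5.12e-08) and the sodium channel genes Scn3a (4.08, adjusted p = 0.000523) and Scn3b (2.25, adjusted p = 0.00135) rose. The channel count fell to 7 higher and 0 lower without B5 replicate 2, and leaving out any other single library left 7 to 13 higher and at most 1 lower. Of 30 transmitter receptor genes, 10 rose and 2 fell, with a median of 0.46, and 6 rose and 2 fell without B5 replicate 3. Chrnb2, a nicotinic receptor subunit (2.62, adjusted p = 3.2e-05), and Grik3, a kainate receptor subunit (0.88, adjusted p = 0.000187), rose. The NMDA receptor subunit gene Grin3a (-2.17, adjusted p = 0.00131) and the metabotropic receptor gene Grm8 (-1.81, adjusted p = 0.00226) fell.

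Transmitter and peptide genes were mixed. Of 18 genes for transmitter synthesis and transport, 5 rose and 3 fell, with a median of 0.90. Dbh, which makes noradrenaline, had 69.4, 61.9 and 59.1 in the B7 libraries, against 3.8, 0.941 and 1.59 in the B5 libraries (log2 change 4.47 ± 0.70 SE, adjusted p = 1.75e-05). The B5 values are close to the bottom of the scale. Slc17a7, a vesicular glutamate transporter (1.67, adjusted p = 0.00142), Slc18a3, the vesicular acetylcholine transporter (1.89, adjusted p = 0.00357), and Nos1, neuronal nitric oxide synthase (1.84, adjusted p = 0.00259), rose. Slc5a7, the choline transporter, fell (-2.04, adjusted p = 0.000258). Slc17a6, the vesicular glutamate transporter of dorsal spinal neurons, had 21.4, 19 and 42.4 in the B7 libraries, against 19.3, 1.18 and 0.690 in the B5 libraries and was not called (2.67, adjusted p = 0.0616). The list had 4 higher and 1 lower both without B5 replicate 3 and without B7 replicate 1, 5 higher and 1 lower without B7 replicate 2, and 8 higher and 2 lower without B5 replicate 1. Of 23 neuropeptide genes, 10 rose and 0 fell, with a median of 1.34. Pcsk1n, an inhibitor of a prohormone convertase (2.87, adjusted p = 0.000193), Pcsk2, such a convertase (2.44, adjusted p = 0.00475), Scg2, a granin (3.4, adjusted p = 0.00232), and Cck, cholecystokinin (2.18, adjusted p = 0.00112), were among them. The count was 4 without B5 replicate 2, 4 without B5 replicate 3 and 5 without B7 replicate 3. The precursor gene Sst, for somatostatin, was not called (1.84, adjusted p = 0.216).

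Most members of the dI1 list and of the joint dI2 and dI3 list rose, and most members of the dI4 to dI6 list did not pass the test. The lists do not separate the classes cleanly. Tlx3, counted with dI2 and dI3, is also a dI5 gene, and Rbfox3, counted with dI1, is also in the pan-neuronal list. Of 9 listed dI1 genes, 6 rose and 1 fell, with a median change of 2.67. Barhl2 followed Barhl1 and had 114, 165 and 431 in the B7 libraries, against 30.6, 1.31 and 3.7 in the B5 libraries (log2 change 4.85 ± 1.04 SE, adjusted p = 0.000644). Pou4f1, a POU homeobox gene of dI1, dI2, dI3 and dI5 neurons, had 1894, 2201 and 2268 in the B7 libraries, against 525, 297 and 433 in the B5 libraries (log2 change 2.37 ± 0.45 SE, adjusted p = 0.000172), and Rbfox3, which encodes the neuronal splicing factor NeuN, rose (2.16, adjusted p = 8.87e-05). The exception was Lhx2, a dI1 gene that had 79.5, 120.0 and 184 in the B7 libraries, against 386, 266 and 335 in the B5 libraries (log2 change -1.42 ± 0.53 SE, adjusted p = 0.0405). The fall of Lhx2 was not called without B5 replicate 1, B5 replicate 2, B5 replicate 3, B7 replicate 1 or B7 replicate 2 (adjusted p = 0.052 to 0.17). The dI1 list had 7 higher and 0 lower without B5 replicate 1, and 6 higher and 1 lower without B7 replicate 3. The bHLH gene Nhlh1 was not called (2.2, adjusted p = 0.144). Of 13 dI2 and dI3 genes, 8 rose and 1 fell, with a median of 2.37. Isl1, the LIM homeobox gene of dI3 neurons, had 489.5, 664 and 733 in the B7 libraries, against 129.9, 46.3 and 68.7 in the B5 libraries (log2 change 3.04 ± 0.77 SE, adjusted p = 0.00304). Tlx3, a homeobox gene of dI3 and dI5 neurons, had 1459, 1348 and 1819.5 in the B7 libraries, against 184, 102 and 52.8 in the B5 libraries (log2 change 3.92 ± 0.75 SE, adjusted p = 0.000185). Pou4f2 (4.61, adjusted p = 2.8e-05) and Prrxl1, a homeobox gene of sensory circuits (2.92, adjusted p = 0.000651), rose. Tlx1, a relative of Tlx3 named after its values were seen, was the member that fell (-1.91, adjusted p = 0.00367). Foxd3, a forkhead gene of dI2 neurons and neural crest, had 1043, 664 and 681 in the B7 libraries, against 1576, 496 and 184 in the B5 libraries and was not called (0.57, adjusted p = 0.641), its sign turning without B5 replicate 3. The dI2 genes Foxp2 (-0.78, adjusted p = 0.448) and Lhx1 (-1.07, adjusted p = 0.294) were not called.

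Of 16 dI4 to dI6 genes, 3 rose (18.8%) and 1 fell (6.25%), beside 15.8% and 15.4% of all genes, with a median of -0.19. Lbx1, the homeobox gene that marks these classes, had 34.6, 51.9 and 49.4 in the B7 libraries, against 85.1, 57.4 and 92.1 in the B5 libraries and was not called (-0.77, adjusted p = 0.358). Pax2, a paired-box gene of dI4 and dI6 neurons, was not called (-0.07, adjusted p = 0.937). Ptf1a, the proneural factor of dI4 progenitors, had 12.2, 11.4 and 8.07 in the B7 libraries, against 1.71, 0.674 and 1.61 in the B5 libraries (log2 change 2.33 ± 0.56 SE, adjusted p = 0.00185), a rise between low levels. Prdm12, a zinc-finger regulator of sensory neurons and of p1 progenitors, had 321, 347 and 339 in the B7 libraries, against 97.3, 51.3 and 68.4 in the B5 libraries (log2 change 2.25 ± 0.75 SE, adjusted p = 0.0217), a call that ended without B5 replicate 2, B5 replicate 3, B7 replicate 1 or B7 replicate 2 (adjusted p = 0.052 to 0.073). Sall3, a zinc-finger factor (0.78, adjusted p = 0.0451), rose in a call that ended without B5 replicate 1, B5 replicate 2, B7 replicate 2 or B7 replicate 3 (adjusted p = 0.1 to 0.18), and Lbx2 fell (-2.32, adjusted p = 0.000358). Without B5 replicate 2, and equally without B7 replicate 2, this list had 1 higher and 1 lower. Among 17 genes of the ventral neural tube, 5 rose and 3 fell, with a median of 0.51. Isl2, a LIM homeobox gene of motor and sensory neurons, had 206, 264 and 304 in the B7 libraries, against 33.9, 13.7 and 18.3 in the B5 libraries (log2 change 3.57 ± 0.57 SE, adjusted p = 2.16e-05). Foxj1, the regulator of motile cilia (1.97, adjusted p = 0.000118), and Lhx3 (1.73, adjusted p = 0.00232) also rose. The motor neuron progenitor gene Olig2 was not called (0.95, adjusted p = 0.257). The ventral list had 4 higher and 1 lower without B5 replicate 3, and 3 higher and 1 lower without B7 replicate 1.

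**Figure D2:**
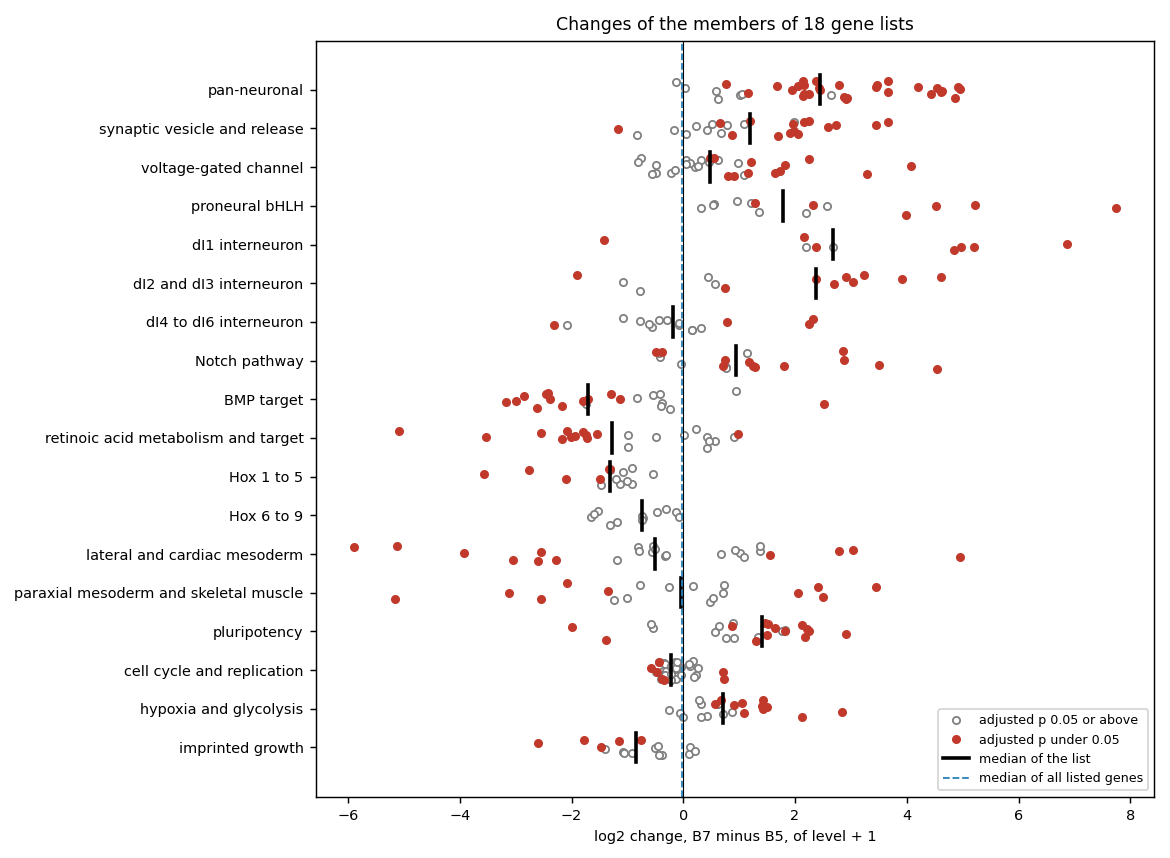
Log2 change (B7 minus B5) of each listed member of 18 gene lists, filled where the adjusted p was under 0.05 and open otherwise, with the list's median as a black bar and the median of all listed genes as a dashed line. The medians ran from 2.67 for dI1 genes to -1.70 for BMP targets.

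Progenitor genes changed in both directions. Of 14 genes in the proneural bHLH list, which are not all bHLH genes, 6 rose and 0 fell, with a median of 1.78. Insm1, a zinc-finger gene of neurons leaving the cycle, was among the rises beside Atoh1 and Neurod1, with 2017, 2011 and 2679.8 in the B7 libraries, against 354, 70.6 and 107 in the B5 libraries (log2 change 3.98 ± 0.76 SE, adjusted p = 0.000183). Nhlh2 rose (4.52, adjusted p = 0.0095), though not without B5 replicate 2 (adjusted p = 0.059), and Neurod4 was not called (2.57, adjusted p = 0.0789). Neurog1, of dI2 progenitors (0.54, adjusted p = 0.708), and Olig3, of dI1 to dI3 progenitors (1.16, adjusted p = 0.409), were not called. Neurog1 turned negative without B5 replicate 2. Of 18 Notch pathway genes, 10 rose and 2 fell, with a median of 0.95. The fallen members, named after their values were seen, were the receptor gene Notch2 (-0.48, adjusted p = 0.042) and the effector gene Hes1 (-0.38, adjusted p = 0.0489). Both calls ended without B5 replicate 1, B5 replicate 3, B7 replicate 1 or B7 replicate 2 (adjusted p = 0.075 to 0.18). Dll3, a divergent Delta ligand, had 929, 1516 and 1778 in the B7 libraries, against 135, 101 and 122 in the B5 libraries (log2 change 3.51 ± 0.53 SE, adjusted p = 1.02e-05). Mfng, a glycosyltransferase that modifies Notch (2.87, adjusted p = 1.24e-06), Dner, a neuronal EGF-repeat protein (4.53, adjusted p = 0.000187), the receptor gene Notch1 (1.8, adjusted p = 2.08e-05) and the ligand gene Jag2 (0.74, adjusted p = 0.000137) rose. The ligand gene Dll1 (0.76, adjusted p = 0.236) and the feedback gene Nrarp (1.14, adjusted p = 0.0607) were not called.

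Of 19 pan-neural progenitor genes, 6 rose and 2 fell, with a median of 0.00. Sox2, the SOX factor of neural and pluripotent cells, had 7973, 8419.7 and 8992 in the B7 libraries, against 4275, 4976 and 5369 in the B5 libraries (log2 change 0.8 ± 0.30 SE, adjusted p = 0.042), and its call ended when any 1 of the 6 libraries was left out (adjusted p = 0.072 to 0.11). Slc1a3, a glutamate transporter of radial glia, rose (2.03, adjusted p = 0.000318), and so did Vim, an intermediate filament gene (1.16, adjusted p = 0.0211), though not without B5 replicate 2, B5 replicate 3 or B7 replicate 3 (adjusted p = 0.08 to 0.1). Irx3 fell (-2.21, adjusted p = 0.00485), though not without B5 replicate 3 (adjusted p = 0.078), and Pax6, a paired-box gene of neural progenitors, had 444, 547 and 686 in the B7 libraries, against 1217, 978 and 2599 in the B5 libraries and was not called (-1.4, adjusted p = 0.0667). This list had 2 higher and 2 lower without B5 replicate 2, 3 higher and 0 lower without B5 replicate 3, 4 higher and 1 lower without B7 replicate 1, and 3 higher and 2 lower without B7 replicate 3. Of 22 dorsal progenitor and roof plate genes, 5 rose (22.7%) and 3 fell (13.6%), beside 15.8% and 15.4% of all genes, with a median of 0.25. Gsx1, a homeobox gene of dI3 to dI5 progenitors, had 99.6, 125 and 101 in the B7 libraries, against 13.3, 1.61 and 4.55 in the B5 libraries (log2 change 4.21 ± 0.75 SE, adjusted p = 8.2e-05). The roof plate ligands Wnt3 (1.97, adjusted p = 0.00461) and Rspo1 (1.58, adjusted p = 0.00119) rose, and Lmx1a, a roof plate LIM homeobox gene, was not called (-1.38, adjusted p = 0.237). The roof plate list had 3 higher and 0 lower without B5 replicate 3, 4 higher and 1 lower without B7 replicate 1, and 5 higher and 1 lower without B7 replicate 2. Of 45 axon guidance genes, 8 rose (17.8%) and 9 fell (20.0%), close to the 15.8% and 15.4% of all genes, with a median of 0.05. Epha8, an ephrin receptor (1.5, adjusted p = 0.000291), and Ntn3, a netrin (1.17, adjusted p = 0.00629), rose beside Cntn2 and Robo3. Unc5b, a repulsive netrin receptor, had 1443, 1028 and 1203 in the B7 libraries, against 4396, 4739.9 and 3367 in the B5 libraries (log2 change -1.76 ± 0.39 SE, adjusted p = 0.00084). The guidance list had 5 higher and 1 lower without B5 replicate 3, 5 higher and 2 lower without B7 replicate 1, 5 higher and 9 lower without B5 replicate 2, and 5 higher and 8 lower without B7 replicate 3.

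Targets and regulators of BMP signalling fell. Of 21 listed genes, 12 fell, 1 rose and 8 were not called, against 15.4% of all genes that fell, and the median change was -1.70. Gata3, a zinc-finger factor, had 171, 140.3 and 234 in the B7 libraries, against 1754, 1197 and 1959 in the B5 libraries (log2 change -3.16 ± 0.71 SE, adjusted p = 0.00107). Grem1, a secreted antagonist that binds BMPs, had 60.8, 43.4 and 40.3 in the B7 libraries, against 471, 442 and 274 in the B5 libraries (log2 change -3.0 ± 0.76 SE, adjusted p = 0.00306). Both groups are well separated for these genes. The distal-less homeobox genes Dlx5 (-2.46, adjusted p = 0.000637) and Dlx3 (-1.7, adjusted p = 0.00284) and the bHLH gene Atoh8 (-2.39, adjusted p = 0.000388) fell. Msx1, a direct target in the dorsal neural tube, had 639, 1223 and 2379 in the B7 libraries, against 6083, 3118 and 15279 in the B5 libraries (log2 change -2.43 ± 0.87 SE, adjusted p = 0.0321). The highest Msx1 level by far was in B5 replicate 3, and the call ended without B5 replicate 1, B5 replicate 3, B7 replicate 1 or B7 replicate 2 (adjusted p = 0.052 to 0.19). Id3, an inhibitor of bHLH factors and a direct SMAD target, had 2932, 4247 and 5936 in the B7 libraries, against 11568, 6877 and 13662 in the B5 libraries (log2 change -1.29 ± 0.43 SE, adjusted p = 0.0223), and its call ended without B5 replicate 1, B5 replicate 3 or B7 replicate 1 (adjusted p = 0.057 to 0.12). Id1 had 1954, 2456 and 3239 in the B7 libraries, against 5498, 3575 and 4364 in the B5 libraries and was not called (-0.82, adjusted p = 0.0956), although its groups did not overlap. Neither Msx2 (-1.73, adjusted p = 0.225) nor Id4 (0.95, adjusted p = 0.291) was called. The list had 1 higher and 9 lower without B5 replicate 1, and 0 higher and 9 lower without B5 replicate 3.

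Genes of retinoic acid metabolism and response fell in the same comparison. Of 22 listed genes, 11 fell and 1 rose, with a median of -1.27. Besides Cyp26b1, they included Stra8, a retinoic acid induced gene of germ cells, which had 87.3, 165 and 102 in the B7 libraries, against 1172, 1187 and 1658 in the B5 libraries (log2 change -3.52 ± 0.45 SE, adjusted p = 6.86e-07). Dhrs3, a retinal reductase that limits retinoic acid synthesis, had 342, 421 and 654 in the B7 libraries, against 3131, 1579.8 and 3783 in the B5 libraries (log2 change -2.54 ± 0.56 SE, adjusted p = 0.000892). Rdh10, the retinol dehydrogenase of the first synthesis step, fell too (-1.73, adjusted p = 1.01e-05). Cyp26a1, the second of the degrading enzymes, had 129.6, 276 and 255 in the B7 libraries, against 626, 760.0 and 1771 in the B5 libraries (log2 change -2.17 ± 0.58 SE, adjusted p = 0.00479), a call that ended without B5 replicate 3 (adjusted p = 0.055). Neither Crabp1, a retinoic acid carrier (-0.98, adjusted p = 0.0504), nor Cdx1 (-0.98, adjusted p = 0.476) was called. Without B5 replicate 3 the list had 1 higher and 4 lower, and without B7 replicate 1 it had 2 higher and 6 lower.

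Retinoic acid receptors bind direct repeats of a 6-base half-site spaced by 5 bases, and promoters of the listed genes were searched for that pattern. The search was added after the values had been seen. A half-site was AGGTCA in its usual form, or else its variant AGTTCA, or the form that opens with a G instead, GGGTCA, or finally the form GGTTCA. Both strands were read, and promoters were the RefSeq stretches (GRCm38.p6) from 250 bases before to 50 after a gene's start. The pattern was found in 2 of 16 retinoic acid list members with a promoter, beside 7 of 8205 listed genes with a promoter (0.0853%) and 32 of the 32851 promoters in the table. It was found in 0 of the 50 called genes with the largest rise and in 0 of the 50 with the largest fall. The list was made of genes known for retinoic acid metabolism or response, so its share was favoured in advance. The list members with the repeat were Cyp26a1 and Rarb. The 250 bases before their starts are shown 5′ to 3′ along the gene, with the repeat in capitals.
Cyp26a1, chr19:37697558-37697807, plus strand: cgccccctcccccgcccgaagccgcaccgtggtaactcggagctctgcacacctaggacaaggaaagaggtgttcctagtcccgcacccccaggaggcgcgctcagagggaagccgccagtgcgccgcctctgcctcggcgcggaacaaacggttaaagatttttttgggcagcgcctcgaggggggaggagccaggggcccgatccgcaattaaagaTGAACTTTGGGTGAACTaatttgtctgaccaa
Rarb, chr14:16575477-16575726, minus strand: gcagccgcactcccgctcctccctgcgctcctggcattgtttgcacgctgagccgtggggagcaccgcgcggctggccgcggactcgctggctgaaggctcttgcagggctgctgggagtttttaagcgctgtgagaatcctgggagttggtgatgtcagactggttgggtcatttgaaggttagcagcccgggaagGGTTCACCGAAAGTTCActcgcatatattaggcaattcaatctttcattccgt
In Cyp26a1 the repeat lies on the strand opposite the gene, 32 to 16 bases before the start, and in Rarb on the gene's own strand, 53 to 37 bases before it. Rarb, a retinoic acid receptor gene singled out by this search, had 311, 422 and 637 in the B7 libraries, against 2112, 896 and 2869.5 in the B5 libraries (log2 change -2.0 ± 0.71 SE, adjusted p = 0.0306), a call that ended without B5 replicate 1, B5 replicate 3, B7 replicate 1 or B7 replicate 2 (adjusted p = 0.068 to 0.15). A match of letters is a description of the sequence and not evidence of binding. E-boxes, the CANNTG sites of bHLH factors, were counted in the same promoters, overlapping matches included and both strands read. They occurred in 35 of the 50 called genes with the largest rise (70.0%) and in 36 of the 50 with the largest fall (72.0%), beside 69.1% of the listed genes with a promoter. For CAGCTG the shares were 14.0%, 14.0% and 19.9%, and for CAGATG 22.0%, 20.0% and 14.9%.

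**Figure D3:**
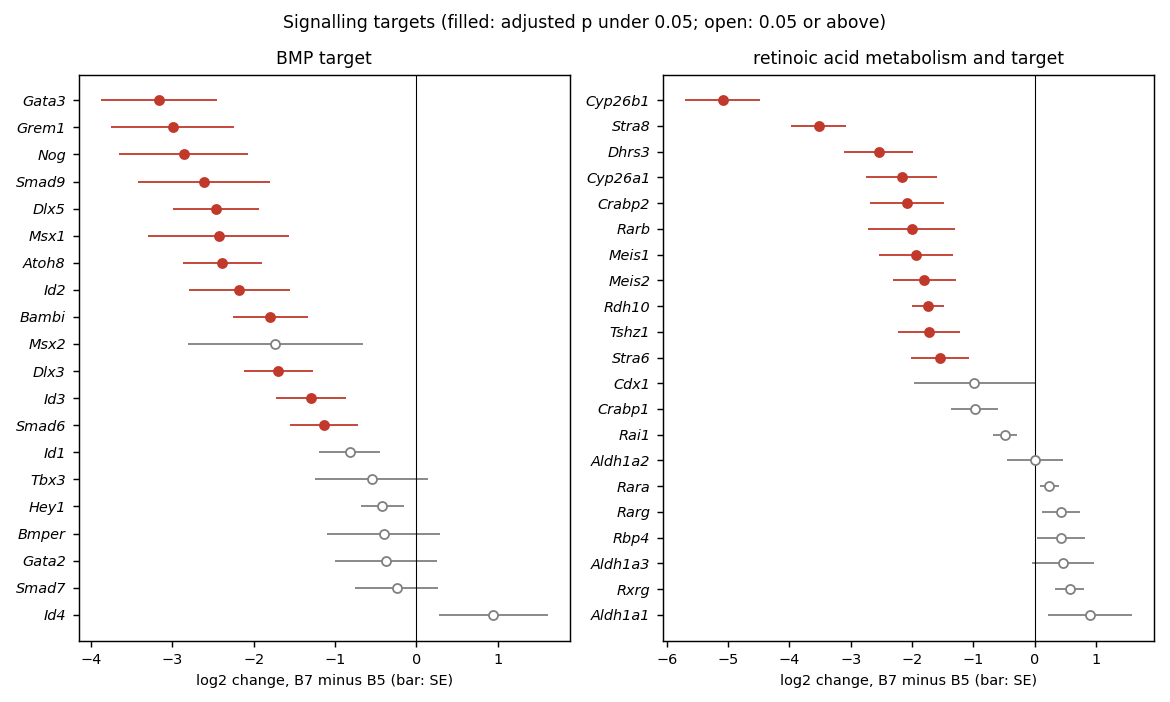
Log2 change (B7 minus B5) with its standard error for BMP targets and regulators (left) and retinoic acid genes (right), filled where the adjusted p was under 0.05. In the left panel 12 genes are called lower, and in the right panel 11.

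Hox genes, which retinoic acid and tail signals set along the body axis, leaned lower from day 5 to day 7 with few calls. Of 15 genes of Hox groups 1 to 5, 6 fell and 0 rose, with a median of -1.31. Hoxb1, of group 1, had 56.6, 137 and 94.1 in the B7 libraries, against 366, 972 and 3493 in the B5 libraries (log2 change -3.56 ± 1.10 SE, adjusted p = 0.0135), a call that ended without B5 replicate 3 or B7 replicate 1 (adjusted p = 0.059 to 0.11). The count for groups 1 to 5 was 1 lower without B5 replicate 3 and 1 lower without B7 replicate 1. Among the 12 genes of Hox groups 6 to 9, 0 were called by limma, 2 had an unadjusted p under 0.05, and the median was -0.74. Without B5 replicate 2, 2 were called lower, and without B5 replicate 3, 0. The trunk gene Hoxb9 had 2674, 5237 and 7582 in the B7 libraries, against 12435, 7799 and 33764 in the B5 libraries (-1.65, adjusted p = 0.0615). Of 7 genes of groups 10 to 13, Hoxb13 fell, with 10.4, 8.13 and 7.89 in the B7 libraries, against 55.3, 54.1 and 46.3 in the B5 libraries (log2 change -2.44 ± 0.26 SE, adjusted p = 5.12e-08), and the median was 0.26. Of 20 caudal progenitor genes, 2 fell and 0 rose, with a median of -0.56. They were Cyp26a1 and Sp8, a zinc-finger gene of the tail (-2.81, adjusted p = 0.00617), whose call ended without B5 replicate 3 (adjusted p = 0.069). The homeobox genes Cdx4 (-2.89, adjusted p = 0.0916) and Nkx1-2 (-2.05, adjusted p = 0.128) were not called. The caudal list had 6 lower without B5 replicate 1 and 0 without B5 replicate 3. Among 14 WNT targets, 2 rose (14.3%) and 3 fell (21.4%), beside 15.8% and 15.4% of all genes, with a median of -0.20. Wif1, a secreted WNT inhibitor, had 77.9, 82.6 and 131 in the B7 libraries, against 16, 4.26 and 7.6 in the B5 libraries (log2 change 3.38 ± 0.74 SE, adjusted p = 0.000844). Dkk1, another inhibitor, fell (-2.97, adjusted p = 0.0167), though not without B5 replicate 3, B7 replicate 1 or B7 replicate 2 (adjusted p = 0.053 to 0.061). The WNT list had 1 higher and 1 lower without B5 replicate 3, 1 higher and 2 lower without B7 replicate 1, and 1 higher and 2 lower without B7 replicate 2. Of 12 FGF feedback genes, 1 rose, the ligand gene Fgf15 (1.86, adjusted p = 0.00383), and the median was -0.21.

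Genes of the mesodermal lists moved in both directions. Of 25 lateral and cardiac mesoderm genes, 7 fell and 4 rose, with a median of -0.50. Isl1, given above as a dI3 neuron gene, is also in this list and is among its rises. The share that rose was close to the 15.8% of all genes that rose, and the share that fell was above the 15.4% that fell. The summed level of this list was 5680 to 7098 in B7 and 10830 to 17040 in B5. Beside the falls of Hand1, Gata5 and Foxf1, Tlx2, a homeobox gene known from neural crest and enteric neurons, rose and had 313, 434 and 361 in the B7 libraries, against 12.1, 11 and 9.45 in the B5 libraries (log2 change 4.96 ± 0.68 SE, adjusted p = 2.5e-06). Osr2, a zinc-finger gene of limb and kidney mesenchyme, rose (2.79, adjusted p = 3.63e-05), while Bmp4 itself had 1214, 532 and 887 in the B7 libraries, against 528, 284 and 219 in the B5 libraries and was not called (1.37, adjusted p = 0.0734). Of 18 paraxial mesoderm and muscle genes, 5 fell and 4 rose, with a median of -0.04. Foxc2, a forkhead gene of somites, had 142, 145 and 142 in the B7 libraries, against 1249, 968 and 1640.0 in the B5 libraries (log2 change -3.13 ± 0.52 SE, adjusted p = 4.02e-05), and the sclerotome gene Pax9 fell (-2.55, adjusted p = 5.96e-05). Its relative Pax1 rose (2.5, adjusted p = 0.00163), and so did the embryonic myosin gene Myh3 (3.44, adjusted p = 0.000569). Of 29 mesenchyme and matrix genes, 3 rose (10.3%) and 5 fell (17.2%), beside 15.8% and 15.4% of all genes, with a median of 0.46. The collagen gene Col1a1 was not called (0.46, adjusted p = 0.659). Prrx2, a homeobox gene of limb mesenchyme, had 118, 165 and 143 in the B7 libraries, against 1776, 1596 and 2362 in the B5 libraries (log2 change -3.73 ± 0.47 SE, adjusted p = 6.1e-07), and Twist1 (-1.77, adjusted p = 0.00347) and Twist2 (-2.0, adjusted p = 0.000426), bHLH genes of mesenchyme, fell. The 3 rises ended without B5 replicate 2, without B5 replicate 3, without B7 replicate 1 and without B7 replicate 3, which each left 0 higher, beside 5, 5, 4 and 5 lower in that order. Without B5 replicate 1, the list had 4 higher and 3 lower. Its summed level was 71260, 48970 and 77770 in B7, against 87810, 38300 and 39560 in B5.

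Of 11 smooth muscle genes, 3 rose and 1 fell, with a median of 0.68. Acta2, smooth muscle actin, had 6438, 1696 and 4159.9 in the B7 libraries, against 1177, 333 and 245 in the B5 libraries (log2 change 2.96 ± 1.02 SE, adjusted p = 0.0268), a call that ended without B5 replicate 2, B5 replicate 3, B7 replicate 1 or B7 replicate 3 (adjusted p = 0.067 to 0.13). Rgs5, a regulator of G-protein signalling in pericytes, fell (-3.75, adjusted p = 3.55e-05). The smooth muscle list had 1 higher without B5 replicate 2 and 0 higher without B5 replicate 3, without B7 replicate 1 or without B7 replicate 3, each beside 1 lower. Of 12 mesothelium genes, 2 rose (16.7%) and 2 fell (16.7%), close to the 15.8% and 15.4% of all genes, with a median of 0.27. The uroplakin genes Upk1b (3.74, adjusted p = 0.00359) and Upk3b (3.37, adjusted p = 0.00531) rose, the second not without B5 replicate 3 (adjusted p = 0.062), and the keratin genes Krt8 (-0.99, adjusted p = 0.000369) and Krt18 (-0.92, adjusted p = 0.00597) fell. Of 20 endothelial and blood genes, 2 rose and 5 fell, with a median of -0.60. Pecam1, an endothelial adhesion molecule that pluripotent cells also carry, had 412, 454 and 334 in the B7 libraries, against 83.9, 113 and 40.3 in the B5 libraries (log2 change 2.44 ± 0.52 SE, adjusted p = 0.000656), while Flt4, a VEGF receptor (-0.85, adjusted p = 0.000267), and Tal1, a bHLH factor of blood and endothelium (-2.09, adjusted p = 0.000547), fell. The endothelial list had 1 higher and 2 lower without B5 replicate 3, and 1 higher and 3 lower without B7 replicate 1. Of 24 surface ectoderm and epithelium genes, 2 rose and 6 fell, with a median of -0.28. Trp63, the regulator of stratified epithelium (-2.13, adjusted p = 0.00107), and Krt15 (-2.68, adjusted p = 0.000683) fell, and Grhl3, a grainyhead factor (2.34, adjusted p = 1.17e-06), and Wnt6 (1.16, adjusted p = 8.09e-05) rose.

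Neural crest genes moved in both directions. Of 21 genes, 6 rose and 5 fell, with a median of -0.49. Ngfr, the low-affinity neurotrophin receptor, had 5081, 5366 and 8104 in the B7 libraries, against 2132, 982 and 937 in the B5 libraries (log2 change 2.27 ± 0.47 SE, adjusted p = 0.000412). Erbb3, a neuregulin receptor of Schwann cell precursors, rose (1.43, adjusted p = 1.39e-05), and so did Sox10, the SOX factor of crest and glia (2.46, adjusted p = 0.0182), though not without B5 replicate 2 or B5 replicate 3 (adjusted p = 0.051 to 0.087). Snai1, a zinc-finger gene of epithelial-to-mesenchymal transition (-1.18, adjusted p = 0.00104), and Ets1 (-1.12, adjusted p = 0.00383) fell beside Twist1. Tfap2a (-1.54, adjusted p = 0.171) and the endothelin receptor gene Ednrb (-1.99, adjusted p = 0.0655) were not called. The crest list had 3 higher and 4 lower without B5 replicate 3. Of 20 glial and Schwann cell genes, 5 rose and 1 fell, with a median of 0.46. Nfib, a nuclear factor of gliogenesis, had 2596, 1287 and 2130.1 in the B7 libraries, against 229.8, 94.6 and 32.2 in the B5 libraries (log2 change 4.42 ± 0.94 SE, adjusted p = 0.000616). Cnp, a myelin enzyme, rose (0.78, adjusted p = 0.000316), and Gfra3, a receptor for artemin, fell (-2.78, adjusted p = 8.24e-05). The glial list had 3 higher and 1 lower without B5 replicate 2, and equally without B5 replicate 3.

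Pluripotency genes were higher in B7, unevenly across the libraries. Of 24 listed genes, 12 rose and 2 fell, with a median of 1.40. Pou5f1, which encodes OCT4, had 1728, 1554 and 441 in the B7 libraries, against 271, 412 and 106 in the B5 libraries (log2 change 2.21 ± 0.71 SE, adjusted p = 0.018), with B7 replicate 3 near the highest B5 library, and its call ended without B5 replicate 3, B7 replicate 1 or B7 replicate 2 (adjusted p = 0.074 to 0.14). Prdm14 rose (2.13, adjusted p = 0.00655), though not without B7 replicate 1 (adjusted p = 0.054). Nanog had 1196, 893 and 328 in the B7 libraries, against 309.7, 258 and 99.1 in the B5 libraries and was not called (1.82, adjusted p = 0.06). The members that fell were Lin28a (-1.99, adjusted p = 0.0252) and Lin28b (-1.38, adjusted p = 0.0233), RNA-binding proteins that block let-7 maturation, singled out after their values were seen. Lin28a was not called without B5 replicate 2, B5 replicate 3, B7 replicate 1 or B7 replicate 3 (adjusted p = 0.057 to 0.12), nor Lin28b without B5 replicate 2, B5 replicate 3, B7 replicate 1 or B7 replicate 3 (adjusted p = 0.053 to 0.16). The mean log2 level of the list was 8.86, 8.77 and 7.68 in B7, against 7.55, 7.8 and 6.71 in B5. The summed level did not follow it, being 22110, 19680 and 12120 in B7, against 16760, 27070 and 24420 in B5. The labels call all samples mESCs, the cells the cultures started from. The list had 1 higher and 0 lower without B5 replicate 3, 0 and 0 without B7 replicate 1, and 5 higher and 2 lower without B7 replicate 2. Without B7 replicate 3 it had 15 higher and 0 lower, and without B5 replicate 2 it had 11 higher and 0 lower. The part that remaining pluripotent cells had in other results was not tested.

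Few cell cycle genes were called. Of 43 listed genes, 2 rose and 5 fell, with a median of -0.22, and the proliferation marker Mki67 had 11406, 9565 and 10704 in the B7 libraries, against 9748, 10942 and 11869 in the B5 libraries (-0.04, adjusted p = 0.889), a small difference whose sign turned under quantile normalization and without B5 replicate 3 or B7 replicate 2. The E2F genes E2f1 (0.71, adjusted p = 4.57e-08) and E2f8 (0.72, adjusted p = 0.000922) rose, E2f1 with 1308, 1535 and 1694 in the B7 libraries, against 946, 903 and 913 in the B5 libraries. The list had 12 lower without B5 replicate 1, 1 without B5 replicate 2, 0 without B5 replicate 3 and 1 without B7 replicate 3, each beside 2 higher. It had 3 lower and 2 higher without B7 replicate 1, and equally without B7 replicate 2. Of 13 cell cycle exit genes, 6 rose and 0 fell, with a median of 0.38, Btg2 (1.35, adjusted p = 0.000429) and the inhibitor gene Cdkn1a (0.5, adjusted p = 0.00188) among them. This count was 2 without B5 replicate 2 and 2 without B7 replicate 3. Of 16 p53 targets, 4 rose and 2 fell, with a median of 0.01, Plk2 rising (1.06, adjusted p = 0.00531) and Sesn1 falling (-0.6, adjusted p = 0.0018).

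Genes of hypoxia and glycolysis rose in B7. Of 21 listed genes, 11 rose and 0 fell, with a median of 0.71. Pdk1, a pyruvate dehydrogenase kinase, had 2785, 3564 and 3153 in the B7 libraries, against 1038, 1078 and 1434 in the B5 libraries (log2 change 1.43 ± 0.29 SE, adjusted p = 0.000385). Hk2, hexokinase (1.43, adjusted p = 0.000154), Pfkp, phosphofructokinase (2.13, adjusted p = 0.000385), Ndrg1 (1.41, adjusted p = 0.000428) and Ero1l, an oxidase of the endoplasmic reticulum (0.67, adjusted p = 3e-05), rose. Of 16 imprinted growth genes, 5 fell and 0 rose, with a median of -0.84. Mest had 18715, 21399 and 27199 in the B7 libraries, against 71814, 58635 and 104599 in the B5 libraries (log2 change -1.78 ± 0.31 SE, adjusted p = 5.59e-05), and Grb10, an adaptor that dampens insulin signalling, had 14034, 12957 and 14407 in the B7 libraries, against 29294, 29376 and 33897 in the B5 libraries (log2 change -1.16 ± 0.16 SE, adjusted p = 3.33e-06). The retrotransposon-derived genes Peg10 (-1.46, adjusted p = 0.00046) and Rtl1 (-2.61, adjusted p = 0.000113) fell. Igf2, the growth factor gene, was not called (-1.4, adjusted p = 0.0834). Of 21 immediate early genes, 6 rose and 0 fell, with a median of 0.72. Ier3 was one of them (1.92, adjusted p = 0.00901), and the count was 2 without B5 replicate 3 and 2 without B7 replicate 1.

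Whether these changes went with BMP4 was asked by testing the day 5 to day 7 change against the same change after retinoic acid alone. The 2 changes share no library. The change differed for 223 genes (1.99%), being more positive after the sequential treatment for 143 (1.27%) and more negative for 80 (0.713%). Of the 143, 127 also rose in B7 over B5, beside 15.8% of all genes, and of the 80, 67 also fell, beside 15.4%. That overlap was favoured in advance, since the difference contains the B7 over B5 change itself. Among called genes with a mean level of at least 50 in B5 or B7, the largest positive differences were in Barhl2, Kcnmb2, Dbh, Upk3b, Prdm12 and Rgs4. Kcnmb2 had 281, 295 and 410.3 in the B7 libraries, against 7.2, 0.838 and 0.908 in the B5 libraries, and 12.4, 15.2 and 1.69 in the R7 libraries, against 1.23, 3.22 and 3.97 in the R5 libraries (difference 5.51 ± 1.14 SE, adjusted p = 0.00529). Dbh changed by 4.47 after sequential treatment and by -0.84 after retinoic acid alone (difference 5.32 ± 1.00 SE, adjusted p = 0.00261). Barhl2 changed by 4.85 and -1.26 in the same order (difference 6.11 ± 1.47 SE, adjusted p = 0.0206), Prdm12 by 2.25 and -2.94 (difference 5.19 ± 1.06 SE, adjusted p = 0.0048), and Rgs4, a regulator of G-protein signalling, by 4.32 and -0.85 (difference 5.17 ± 1.11 SE, adjusted p = 0.00759). Upk3b changed by 3.37 and -1.9 (difference 5.27 ± 1.29 SE, adjusted p = 0.0228). Other dorsal interneuron genes with called differences were Lhx9 (difference 4.69 ± 1.16 SE, adjusted p = 0.0239) and Pou4f1 (difference 2.44 ± 0.64 SE, adjusted p = 0.0349), and for Neurod1 the difference was 4.28 ± 0.85 SE, adjusted p = 0.00437. Results without single libraries are not given for Lhx9, Pou4f1 and Neurod1. In all, 3 of 9 dI1 genes and 1 of 13 dI2 and dI3 genes were called more positive, Pou4f1 being in both lists. The differences of Barhl1, Isl1 and Tlx3 were not called. Atoh1 had 200.2, 233 and 12.6 in the R7 libraries, against 2.87, 9.93 and 2.53 in the R5 libraries, and its difference was not called (difference 3.73 ± 1.55 SE, adjusted p = 0.248).

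At the same minimum level, the largest negative differences from the course after retinoic acid alone included those of Hand1, Rgs5, Rxfp3, Tnnt3 and Fgd5. Hand1 had 6.17, 10 and 12.4 in the R7 libraries, against 22, 9.23 and 14.1 in the R5 libraries (difference -5.3 ± 1.28 SE, adjusted p = 0.0211). Its day 5 level was high after BMP4 and low without it. Fgd5, an activator of the GTPase CDC42 known from endothelium, had 252, 329.6 and 399.8 in the B7 libraries, against 2044, 1755 and 1654 in the B5 libraries, and 230.4, 305 and 256 in the R7 libraries, against 267, 190.2 and 149.7 in the R5 libraries (difference -2.9 ± 0.39 SE, adjusted p = 7.54e-05). Rxfp3, a relaxin-family peptide receptor, changed by -3.7 after sequential treatment and by -0.31 after retinoic acid alone (difference -3.38 ± 0.65 SE, adjusted p = 0.00298), Rgs5 by -3.75 and -0.32 (difference -3.43 ± 0.88 SE, adjusted p = 0.031), and Tnnt3, a skeletal muscle troponin, by -1.56 and 1.41 (difference -2.97 ± 0.70 SE, adjusted p = 0.0177). Over whole lists, the BMP targets had medians of -1.70 after sequential treatment and 0.03 after retinoic acid alone. By limma 0 of the 21 were called different, and 7 had an unadjusted p under 0.05. Pan-neuronal genes had medians of 2.45 and 0.99, with 4 of 37 called more positive after the sequential treatment. Retinoic acid genes had medians of -1.27 and -0.87, with 0 of 22 called different by limma and 4 at an unadjusted p under 0.05. The 223 calls became 109 without R5 replicate 2, 122 without R7 replicate 3, 123 without B5 replicate 2, 127 without B5 replicate 3 and 140 without B7 replicate 3. Leaving out single libraries ended the calls of Barhl2 (5 of 12 omissions, adjusted p up to 0.089), Upk3b (5, up to 0.1), Hand1 (3, up to 0.07), Rgs5 (9, up to 0.087) and Tnnt3 (2, up to 0.057), and of none of the other 6 genes named in these sentences by rule. With the 12 compared libraries fitted alone, Barhl2 (adjusted p = 0.082), Upk3b (adjusted p = 0.09) and Rgs4 (adjusted p = 0.064) were not called. A replicate block added to that fit also ended the calls of Kcnmb2 (adjusted p = 0.083), Rxfp3 (adjusted p = 0.071) and Tnnt3 (adjusted p = 0.07). Under it Barhl2 had 0.16, Upk3b 0.11 and Rgs4 0.13. With a pseudocount of 0.1 Rgs5 was not called (adjusted p = 0.055).

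The same change was then tested against that after combined treatment. The difference was called for 1599 genes (14.3%), more positive after the sequential treatment for 750 (6.68%) and more negative for 849 (7.57%). In 1196 of them the 2 changes had opposite signs, which picking genes by that difference favours. The share of opposite signs over all listed genes was not counted. The largest positive differences at that minimum level were in Cntn2, Sncg, Scn3a, Ttc9b, Robo4 and Pou4f3. Cntn2 had 163, 306 and 965 in the M7 libraries, against 174, 215 and 161 in the M5 libraries (difference 5.56 ± 1.19 SE, adjusted p = 0.00259). Sncg, a synuclein of sensory neurons, had 445, 449 and 574 in the B7 libraries, against 66.8, 31.2 and 22.2 in the B5 libraries, and 32, 35.4 and 101 in the M7 libraries, against 98.4, 85.9 and 72.2 in the M5 libraries (difference 4.51 ± 1.10 SE, adjusted p = 0.00652). Pou4f3, a POU gene of sensory neurons, changed by 4.74 after sequential treatment and by 0.76 after combined treatment (difference 3.98 ± 0.63 SE, adjusted p = 0.000136), Ttc9b by 3.94 and -0.41 (difference 4.35 ± 0.77 SE, adjusted p = 0.000467), Robo4, a receptor of the Robo family known from endothelium, by 3.48 and -0.66 (difference 4.15 ± 0.85 SE, adjusted p = 0.00192), and Scn3a by 4.08 and -0.3 (difference 4.38 ± 1.21 SE, adjusted p = 0.0148). The largest negative differences at that level were in Csn3, Sp8, Gata5, Meox1, Foxc2 and Foxe3. Gata5 had 575, 1469.6 and 1434 in the M7 libraries, against 1312, 1964 and 2753 in the M5 libraries (difference -4.28 ± 1.23 SE, adjusted p = 0.0188), and Foxc2 had 877, 1539.8 and 1429.7 in the M7 libraries, against 552, 640.5 and 897 in the M5 libraries (difference -3.99 ± 0.74 SE, adjusted p = 0.000761). Meox1 changed by -5.16 and -1.0 in the same order (difference -4.15 ± 0.95 SE, adjusted p = 0.00421), Sp8 by -2.81 and 1.51 (difference -4.32 ± 1.10 SE, adjusted p = 0.00861), Csn3 by -4.95 and -0.49 (difference -4.46 ± 1.26 SE, adjusted p = 0.0167) and Foxe3 by -5.31 and -1.35 (difference -3.96 ± 1.35 SE, adjusted p = 0.0454). Of the 37 pan-neuronal genes, 11 were more positive after the sequential treatment, as were 7 of 25 synaptic genes and 7 of 21 genes of hypoxia and glycolysis. Hox genes of groups 1 to 5 had medians of -1.31 after sequential and 0.42 after combined treatment, with 2 of 15 called different, beside 14.3% of all genes. The 1599 calls became 839 without M7 replicate 2, 867 without B5 replicate 3 and 918 without M5 replicate 1. Single omissions ended the calls of Scn3a (2 of 12, adjusted p up to 0.058), Csn3 (2, up to 0.07), Gata5 (3, up to 0.054) and Foxe3 (9, up to 0.17), and of none of the other 8. Foxe3 was also not called with a pseudocount of 0.1 (adjusted p = 0.062) or a replicate block over all libraries (adjusted p = 0.053). Nor was it called with the compared libraries alone (adjusted p = 0.068) or when p-values were adjusted over 16014 genes (adjusted p = 0.065).

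**Figure D4:**
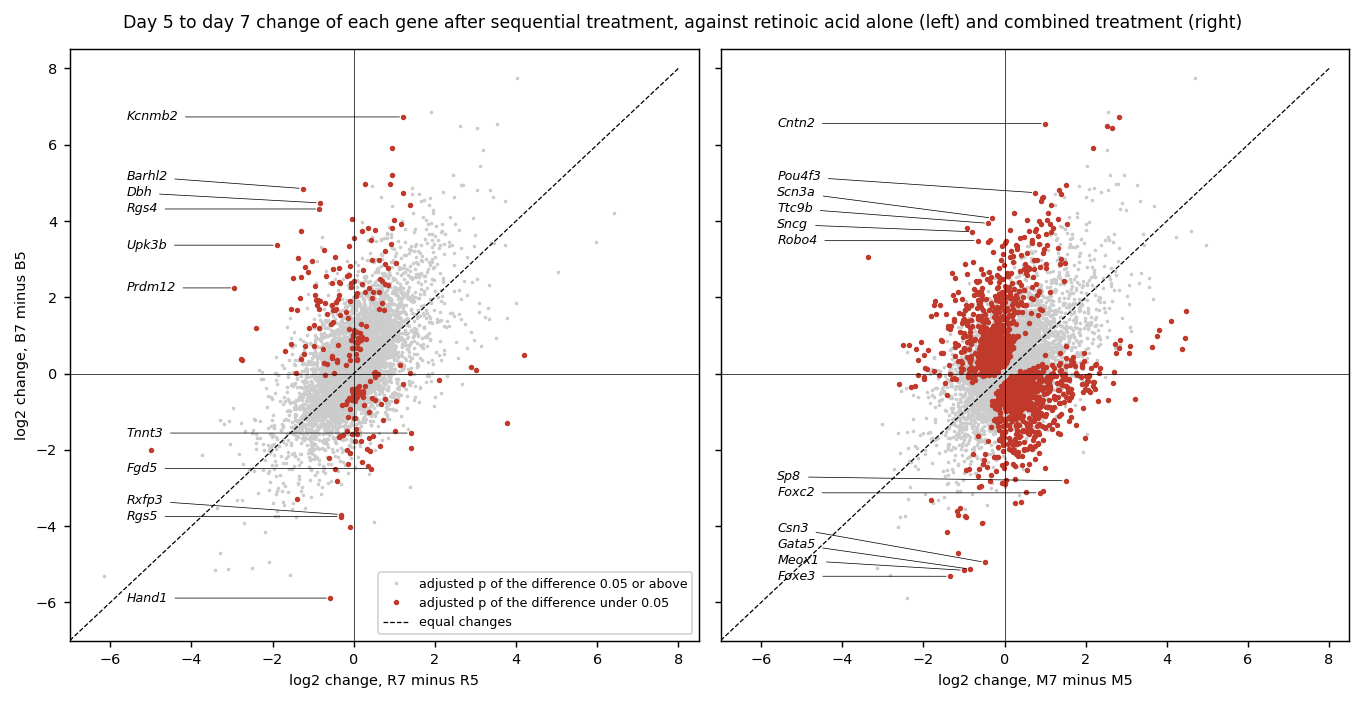
Log2 change from day 5 to day 7 after the sequential treatment (vertical axis, B7 minus B5) against that after retinoic acid alone (left, R7 minus R5) and after combined treatment (right, M7 minus M5), 1 point per listed gene, red where the difference had an adjusted p under 0.05. The red points number 223 on the left and 1599 on the right, and the named genes are among those with the largest differences at a mean level of at least 50 in B5 or B7.

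Along the sequentially treated cultures, from 6 h of BMP4 on day 4 (B6hr) through B5 and B7 to day 9 (B9), the genes above followed different courses. These levels are a description. Tubb3 had levels of 416, 1414 and 759 at B6hr, 2829, 536 and 390.4 at B5, 24656, 20828 and 28015 at B7 and 5293, 5700.3 and 5389 at B9, so the B7 libraries were the highest of the 4 groups. Atoh1 had 1.82, 8.37 and 2.49 at B6hr, 19, 1.77 and 2.59 at B5, 822, 952 and 2514 at B7 and 193, 114 and 118 at B9. Its day 9 levels lay below every B7 library and above every B5 library. Barhl1, by contrast, had 831, 345 and 298 at B9, which overlapped its B7 levels. Hand1 had 7.41, 133 and 259 at B6hr, and its B9 levels of 33.5, 16.7 and 16.7 overlapped those of B7. Cyp26b1 had 224, 361 and 689 at B6hr and 277, 110.3 and 96.5 at B9, below every B5 library at both ends. Id3 had 2625, 5464 and 8087 at B6hr and 3124, 2191 and 1948 at B9. Stmn2 had 2585, 3778 and 3845 at B9, lower than its B7 libraries and higher than its B5 libraries.

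**Figure D5:**
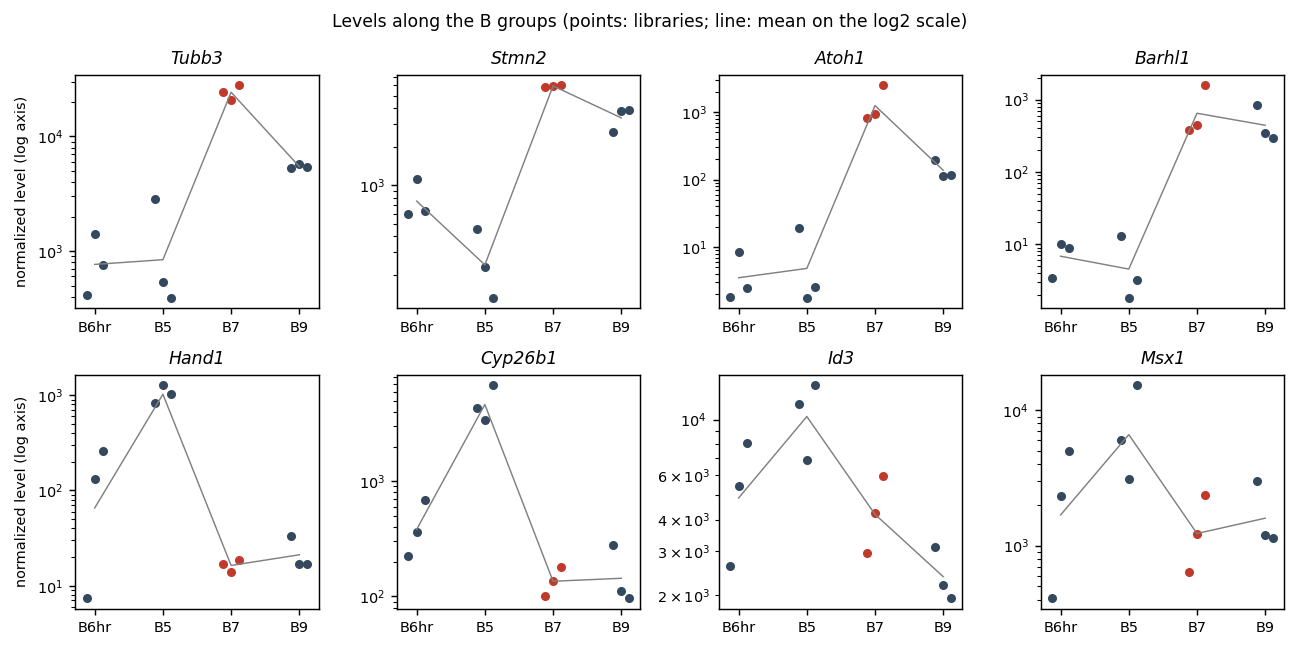
Normalised level on a log axis in each library of the sequentially treated groups, B6hr, B5, B7 and B9 from left to right, for 8 genes, with a line through the means taken on the log2 scale. Tubb3, Stmn2 and Atoh1 are highest at B7 (red), and Hand1, Cyp26b1 and Id3 have their highest mean at B5.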

How the data were processed

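RNA was measured by sequencing in 45 libraries of 15 groups with 3 replicates each, and the report uses B7, B5, R7, R5, M7 and M5, with B6hr and B9 for the course. Per the labels' protocols, cultures were lysed whole, and libraries were made with a kit for polyadenylated RNA and sequenced on a NovaSeq. The labels state 3 independent differentiations but do not tie replicate numbers to them, so the p-values measure the spread between these samples, which may be partly technical. The submitters' processing notes name mm10, Picard and edgeR. Aligner, counter and annotation: not given in the sources used here.

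For each gene and library the authors deposited a signal, a normalised level whose scale the header does not state. The deposited table is not a count table, so depth is known only through the sum of listed levels, which was 12245725 to 15868724, and no count model was used. It lists 11220 genes, those with an FDR under 0.1 in any of the authors' 12 deposited comparisons, out of 16014 tested, so shares of called genes refer to a list already selected for change. The authors' log2 fold changes and p-value columns were used only to describe the list, and 0 of them compare B7 with B5. Some compare B5 or B7 with another group, as R5 with B5, B5 with M5, R7 with B7 and B7 with M7. The list was therefore selected in part on libraries that are also tested here, including those in the differences of changes. A rank score and columns of per-length values, treated as a score, were deposited by the authors and not used. Of 22 symbols turned into dates, 21 were restored.

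Levels plus a pseudocount of 1 were taken to log2, and all 45 libraries were fitted in 1 limma model (limma 3.58.1, R 4.3.3, trend and robust options). Fold changes on this scale understate those of low genes. Every listed gene reached level 1 in 3 or more libraries, so that filter left out 0 of them. Limma's p-values were adjusted by the Benjamini-Hochberg method over 11220 genes in each of 3 contrasts. Tables and figures used Python 3.11.15 with pandas 2.3.3, numpy 2.4.6 and matplotlib 3.10.9. The fit was tested on simulated data. Gene spans are from GENCODE vM21 (mm10), and promoters from RefSeq (GRCm38.p6).

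Genes, lists and comparisons were chosen with earlier results of these data known. The text names up to 12 called genes per direction with the largest change, non-overlapping groups and a mean of at least 50. It also names up to 5 called members per list by adjusted p and up to 2 not called, 6 genes per direction in each difference of changes, and a set of marker genes. A few genes that these rules pick are counted but not reported here by name. Alternatives were the pseudocount, the filter, quantile normalization, a replicate block, array weights, fits of the compared libraries alone, adjustment over 16014 genes, a threshold of 0.01, and leaving out each library. A fit without the day 0, day 3 and 6 h libraries was added after seeing the data.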

Additional observations from a re-analysis of the deposited data

Results flagged for a closer look

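The test of the difference itself set the change from day 5 to day 7 after sequential treatment apart from that after retinoic acid alone for 223 genes, and from that after combined treatment for 1599 genes. Differences are given on the log2 scale, sequential minus the other treatment.

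Against retinoic acid alone, the positive differences named by rule were 6.11 for Barhl2, 5.51 for Kcnmb2, 5.32 for Dbh, 5.27 for Upk3b, 5.19 for Prdm12 and 5.17 for Rgs4. The negative ones included -5.3 for Hand1, -3.43 for Rgs5, -3.38 for Rxfp3, -2.97 for Tnnt3 and -2.9 for Fgd5.

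Against combined treatment, the positive differences were 5.56 for Cntn2, 4.51 for Sncg, 4.38 for Scn3a, 4.35 for Ttc9b, 4.15 for Robo4 and 3.98 for Pou4f3. The negative ones were -4.46 for Csn3, -4.32 for Sp8, -4.28 for Gata5, -4.15 for Meox1, -3.99 for Foxc2 and -3.96 for Foxe3. All had an adjusted p under 0.05 by limma. The omissions that ended calls are given beside each result, and no explanation was tested.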

How the results depend on the processing

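At an adjusted p under 0.01 the calls numbered 2047 for B7 over B5, 83 for the difference from retinoic acid alone, 571 for the difference from combined treatment and 208 among the listed members, against 3501, 223, 1599 and 329 at 0.05. Array weights gave 1134 and 4948 for the 2 differences. The compared libraries alone gave 143 for the difference from retinoic acid alone, and the fit without the day 0, day 3 and 6 h libraries, chosen after seeing the data, gave 354. Leaving out single libraries gave 2104 to 3533 calls for B7 over B5, 109 to 276 and 839 to 1881 for the 2 differences, and 204 to 340 among the listed members. The causes were not tested. Quantile normalization gave 3691 calls, 1686 higher and 2005 lower, and shifted the median of all genes by -0.035. List medians kept their sign under it, except that the pan-neural progenitor median was 0.01 and the axon guidance median 0.00.

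Same-numbered B7 and B5 libraries had correlations of deviations of -0.084, 0.211 and 0.204, against -0.594 to 0.476 for different numbers. For M7 and M5 they were 0.573, -0.003 and 0.536, against -0.637 to 0.305. For R7 and R5 they were -0.576, 0.548 and -0.418, against -0.626 to 0.76. Deviations within a group are few and tied to each other, so these values cannot decide whether the numbers pair the samples. A replicate block over all libraries gave 3430, 221 and 1508 calls. With the block on the compared libraries alone there were 2119 calls for B7 over B5, 60 for the difference from retinoic acid alone, 2229 for that from combined treatment and 338 among the listed members.

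Of 277 named genes, 193 were called, and 141 of these kept the call under every alternative run. The genes whose sign turned were not called. Foxd3 ran from -0.18 to 1.36 without single libraries, and Neurog1 from -0.03 to 1.13. Mki67 ran from -0.11 to 0.03, and was 0.06 under quantile normalization. Pax2 ran from -0.41 to 0.29, and was 0.04 with array weights. The authors' own test of B7 against B5 was not run here, since 0 of the 12 deposited comparisons used here make it. With 3 libraries a group and no counts, small changes of low genes could not be resolved. How reads shared with pseudogene copies, as of Pou5f1, Krt8 and Krt18, or with antisense genes were counted is not known here.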
